A study of Mus musculus with 36 samples.

Results

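Chronic SAHA was compared with vehicle in the nucleus accumbens (NAc) of mice on 6 of the 36 Illumina MouseWG-6 arrays in the study, 3 arrays for SAHA and 3 for vehicle, chosen by the labelled region and treatment alone. All mice were male, labelled C57BL/6J (C57BL/6 from 2 suppliers in the study's methods), and about 11 weeks old when dosing began. They were injected intraperitoneally once a day, 10 times in all, and killed 1 h after the final dose. SAHA was given at 25 mg/kg in 5 mL/kg of a solution of 10% DMSO, 45% PEG-400 and 45% saline, and vehicle mice received the solution alone at 7.5 mL/kg, so that drug and injected volume cannot be told apart. Each array measured a pool of the RNA of 2 mice, and the same pools also gave medial prefrontal cortex (PFC) and hippocampus (HIP). The question was which transcripts of the NAc differed after repeated HDAC inhibition.

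Histone deacetylases (HDACs) remove acetyl groups from lysines of histones and other proteins, and act largely within corepressor complexes at genes. SAHA (suberoylanilide hydroxamic acid, vorinostat) is a hydroxamate that binds the zinc ion in the catalytic site of these enzymes and so raises histone acetylation. The NAc, the ventral part of the striatum, consists mostly of GABAergic medium spiny neurons that express dopamine D1 or D2 receptors, and it receives glutamatergic input from cortex, hippocampus, amygdala and thalamus. Few of its neurons make the vesicular glutamate transporter Slc17a7 (VGLUT1), which marks the cortical and hippocampal neurons that project there.

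Marker levels followed the labelled tissue. In the vehicle pools, 25 of 25 tested medium spiny neuron genes were higher in NAc than in both PFC and HIP, with median log2 levels of 10.30, 7.84 and 7.17, whereas 0 of 16 cortical and hippocampal glutamatergic genes were above both other regions and 11 were below both. Genes entered both counts only if detected in a NAc group, which favours genes that are high there. The count for medium spiny neuron genes therefore describes the tissue and does not test the label. The 6 arrays lay on 2 BeadChips, slides of 6 arrays each. The first held vehicle pools 1 and 2 and SAHA pool 1, and the second held vehicle pool 3 and SAHA pools 2 and 3. Arrays on the same BeadChip correlated at 0.984 to 0.994 and arrays on different BeadChips at 0.961 to 0.977, so the slide separated the arrays more than the drug did. On both slides the vehicle arrays sat at positions B to D and the SAHA arrays at E and F, so position and drug cannot be told apart. Raw median intensities of the 6 arrays ranged from 94.4 to 107.8. SAHA pool 3 stood apart from the other pools for several neuronal lists, and for the lists and genes it moved most the value without it is also given.

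Few transcripts differed between SAHA and vehicle at a nominal threshold, and with all pools more of them were lower than higher, a balance that turned when SAHA pool 2 or vehicle pool 1 was left out. Of 22142 probes detected in the NAc, 34 were higher under SAHA (0.154%) and 90 were lower (0.406%) at an unadjusted p under 0.05 with at least a 1.2-fold change, which is 0.26 on the log2 scale. The terms higher, lower, rose and fell are used below for this nominal threshold, which sets the 1.2-fold limit of the study's methods beside the p of limma. None of the probes had an adjusted p under 0.05 in limma, the smallest being 0.999697, so each gene below is given by its levels, its log2 change and the standard error (SE) from limma. A total of 344 probes (1.55%) had an unadjusted p under 0.05, 131 with a positive change (0.592%) and 213 with a negative one (0.962%), and the methods' analysis of variance with Tukey's test likewise left 0 probes after adjustment and 228 at an unadjusted p under 0.05. The median log2 change over all probes was -0.0017. All 3 SAHA pools lay above all 3 vehicle pools for 3.45% of probes and below them for 3.87%. By gene, at the brightest probe, 251 of 15849 had an unadjusted p under 0.05 (1.58%), 96 positive (0.606%) and 155 negative (0.978%). With the BeadChip as a block, 51 probes were higher (0.23%), 139 were lower (0.628%) and none passed adjustment, which by gene was 41 higher (0.259%) and 100 lower (0.631%). The p-values measure the spread between pools of 2 mice, and an exact permutation test of 3 pools against 3 cannot give a two-sided p below 0.1.

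The nominal changes mostly had the same sign on both slides. Of the 34 higher probes, 34 had a positive difference within each BeadChip and 23 were still called with the BeadChip as a block. Of the 90 lower probes, 88 were negative within each BeadChip and 69 were still called. These probes were chosen on the same arrays, so agreement of sign between the slides was largely fixed by the choice. The counts describe the probes and do not test them. SAHA pool 3 was the SAHA pool farthest from the vehicle mean for 21 of the 34 higher probes and for 40 of the 90 lower ones. The counts and their balance depended on single pools. Without SAHA pools 1, 2 and 3 in turn, 263, 408 and 12 probes were higher and 283, 277 and 66 were lower. Without vehicle pools 1, 2 and 3 in turn, 57, 30 and 105 were higher and 55, 43 and 277 were lower. Of the 34 higher probes, 8 were still called without SAHA pool 3, the fewest of the 6 settings, and of the 90 lower probes 33 were still called without vehicle pool 2, again the fewest.

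A set of 12 probes, 2 higher and 10 lower, met the nominal threshold in each of 11 fits, namely the one described, the fits with the BeadChip as a block, with the 6 arrays alone, with all 36 arrays and with the 9 NAc arrays normalized alone, and the fits that left out each SAHA or vehicle pool. This choice was made on the same values, and so it describes these probes and does not test them afresh. One of the 2 higher probes measured Nrip3, a nuclear receptor interacting protein. Its log2 levels were 8.39, 8.27 and 8.09 in vehicle pools 1 to 3 and 8.59, 8.86 and 9.16 in SAHA pools 1 to 3. All 3 SAHA pools lay above all 3 vehicle pools, and the log2 change was 0.62 (SE 0.185), with 0.26 within the first BeadChip and 0.92 within the second. The other higher probe, BC038167, was steadier across slides. It had log2 levels of 7.00, 6.94 and 7.00 under vehicle and 7.35, 7.47 and 7.36 under SAHA, a log2 change of 0.41 (SE 0.109), and a second, dimmer probe gave 0.22.

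Among the 10 lower probes were genes of synaptic receptors, signalling and chromatin. Gria2 encodes the AMPA receptor subunit that makes the channel impermeable to calcium. Its log2 levels were 11.60, 11.55 and 11.80 under vehicle and 11.18, 11.13 and 11.42 under SAHA. The groups did not overlap, and the log2 change was -0.41 (SE 0.107), with -0.40 and -0.53 within the BeadChips. A second Gria2 probe was lower by -0.38, and the remaining, much dimmer probe differed by 0.03. Rock2 encodes a kinase that regulates the actin cytoskeleton, and was 1 of the genes named in the study. It had log2 levels of 7.41, 7.42 and 7.49 under vehicle and 7.07, 7.16 and 7.12 under SAHA, with no overlap. The log2 change was -0.33 (SE 0.0665) and was -0.35 within either BeadChip, while a second probe gave 0.13 (SE 0.154). Both probes were dim, with mean log2 levels of 7.24 for the called probe and 6.84 for the second.

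Dgkb (diacylglycerol kinase beta), an enzyme abundant in striatum that converts diacylglycerol to phosphatidic acid, was lower on each of its 3 probes. The most stable probe had log2 levels of 9.44, 9.45 and 9.58 under vehicle and 9.05, 9.36 and 8.88 under SAHA, a log2 change of -0.39 (SE 0.119), and the other probes gave -0.30 and -0.39. Foxp2, a forkhead transcription factor of medium spiny neurons, was lower on 2 of 4 probes. Its levels were 7.65, 7.67 and 7.71 under vehicle and 7.38, 7.37 and 7.18 under SAHA (log2 change -0.37, SE 0.08). The second called Foxp2 probe gave -0.27, and the remaining probes gave -0.19 and -0.08. Cx3cl1 (fractalkine), a neuronal chemokine whose receptor is on microglia, had levels of 11.36, 11.43 and 11.29 under vehicle and 11.06, 11.05 and 10.91 under SAHA (log2 change -0.35, SE 0.0945). The microglial receptor gene Cx3cr1 was not called, with a log2 change of -0.10 (SE 0.144).

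Nipbl, which loads cohesin on chromosomes, was lower on 1 of 3 probes. That probe had levels of 8.26, 8.17 and 8.12 under vehicle and 7.65, 7.82 and 7.94 under SAHA (log2 change -0.38, SE 0.0911), whereas the brightest Nipbl probe gave -0.18 (SE 0.342) and the dimmest -0.0015. Thoc2, part of the THO complex of mRNA export, had levels of 7.73, 7.69 and 7.99 under vehicle and 7.06, 7.48 and 7.52 under SAHA (log2 change -0.45, SE 0.136). With the BeadChip as a block its change was -0.55 (SE 0.0793), and a dim second probe gave -0.07. Dmtf1, a cyclin D-binding transcription factor, had levels of 9.48, 9.49 and 9.44 under vehicle and 9.07, 9.19 and 9.22 under SAHA. This was a log2 change of -0.31 (SE 0.0632) on its brightest probe, while 3 dimmer probes gave -0.08, 0.04 and -0.05. For Nipbl, Thoc2, Dmtf1 and Rock2 the lower level therefore rests on 1 probe each. The last 2 of the 10 were OTTMUSG00000004551, with a log2 change of -0.37 (SE 0.0888), and a beta-globin probe described with the blood genes.

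**Figure D1:**
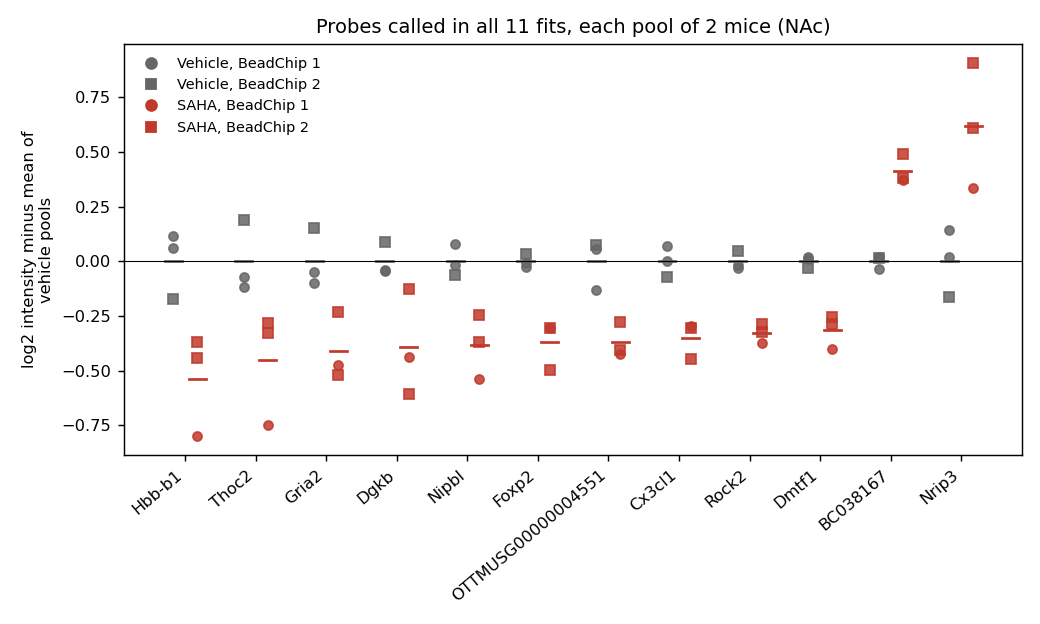
Log2 intensity minus the mean of the vehicle pools (y axis) of the 12 probes called in all 11 fits (x axis), with 1 point per pool of NAc, grey for vehicle and red for SAHA, circles for the first BeadChip and squares for the second, and a short bar at each group mean. All 3 SAHA pools lie above all 3 vehicle pools for Nrip3 and BC038167 and below them for the other 10 probes.

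The largest nominal rises included genes that astrocytes express, and SAHA pool 3 was the highest array for each of those described here. The reference sequence just before the start of 3 of these genes and of Hba-a1, the largest called fall among blood genes, is shown to be read beside their values. Each is the 120 bases before the start of the gene in RefSeq (GRCm38.p6), written 5′ to 3′ on the strand of the gene. Capitals mark 4 motifs searched on either strand, with the letters CACCC for the box bound by Krüppel-like factors, the letters CCAAT for the box bound by nuclear factor Y, the letters TATAA for the core of the TATA box, and the letters GGGCGG for the GC box. These are Hba-a1 at chr11:32283552-32283671 on the plus strand, Itih3 at chr14:30923588-30923707 on the minus strand, Gja1 at chr10:56377180-56377299 on the plus strand and Gjb6 at chr14:57133612-57133731 on the minus strand.
Hba-a1: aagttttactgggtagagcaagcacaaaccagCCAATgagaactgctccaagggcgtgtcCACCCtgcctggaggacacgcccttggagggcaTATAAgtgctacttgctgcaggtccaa
Itih3: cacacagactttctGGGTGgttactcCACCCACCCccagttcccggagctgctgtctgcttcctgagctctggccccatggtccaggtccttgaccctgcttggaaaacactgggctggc
Gja1: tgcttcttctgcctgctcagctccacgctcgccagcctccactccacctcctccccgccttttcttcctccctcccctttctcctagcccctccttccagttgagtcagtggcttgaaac
Gjb6: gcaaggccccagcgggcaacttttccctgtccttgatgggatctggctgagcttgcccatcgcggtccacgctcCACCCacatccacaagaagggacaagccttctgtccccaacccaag
The Hba-a1 window held CCAAT 88, CACCC 60 and TATAA 27 bases before the start, the Itih3 window held CACCC on both strands, the Gjb6 window held it 46 bases before the start, and the Gja1 window held none of the letters searched. Over 32851 mouse promoters, 31.7% of windows of the same length held the CACCC letters. The share was 21.3% for the CCAAT letters, 11.8% for the TATAA letters and 26.5% for the GC box, so these matches are common and are given as a description only.

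Itih3, which encodes a heavy chain of the inter-alpha-trypsin inhibitors that bind hyaluronan, showed the largest called rise. Its brighter probe had log2 levels of 9.07, 8.80 and 8.17 under vehicle and 9.40, 9.39 and 10.02 under SAHA. The groups did not overlap, and the log2 change was 0.93 (SE 0.362), with 0.47 within the first BeadChip and 1.54 within the second. Gjb6 (connexin 30) and Gja1 (connexin 43) encode the gap junction proteins that couple astrocytes, and both were higher. Gjb6 had levels of 9.10, 9.04 and 8.98 under vehicle and 9.43, 9.33 and 9.97 under SAHA (log2 change 0.54, SE 0.186). Gja1 had levels of 11.20, 11.14 and 11.09 under vehicle and 11.33, 11.51 and 11.63 under SAHA (log2 change 0.35, SE 0.114). Both connexins were separated between groups, and SAHA pool 3 was the highest array for each. Agxt2l1, now named Etnppl, is a phospholyase of phosphoethanolamine made in astrocytes. It had levels of 7.26, 7.25 and 7.22 under vehicle and 7.87, 7.36 and 8.07 under SAHA (log2 change 0.53, SE 0.171), and its second probe was higher by 0.37. Without SAHA pool 3 none of Itih3, Gjb6, Gja1 and Agxt2l1 was called, and the log2 change of Gjb6 was 0.34.

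Most astrocyte genes were not called. Of 16 homeostatic astrocyte genes tested, 2 were higher (over all genes, 27 of 15849 were higher, 0.17%, and 60 were lower, 0.379%), none was lower and 12 had a positive change, with a median of 0.06. Slc1a3, the glutamate transporter GLAST, and Slc1a2, the transporter GLT-1, differed by 0.12 (SE 0.111) and -0.02 (SE 0.0866), and the water channel Aqp4 by 0.26 (SE 0.207). Of 14 reactive astrocyte and acute phase genes, Itih3 alone was called, with a median of 0.0045. Gfap, the astrocyte intermediate filament, was not called. Its levels of 7.86, 7.44 and 7.56 under vehicle and 8.18, 7.62 and 8.98 under SAHA overlapped, with a log2 change of 0.64 (SE 0.312) that was 0.28 without SAHA pool 3. In these bulk samples, fewer cells of a type and less RNA per cell cannot be told apart.

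Other nominal rises were the neurotrophin receptor Ngfr (p75), Masp1, a serine protease of the lectin pathway of complement, and the probe 6430537F04, now assigned to Grin3a, an NMDA receptor subunit. Ngfr had levels of 6.79, 6.64 and 6.66 under vehicle and 7.06, 6.88 and 7.44 under SAHA (log2 change 0.43, SE 0.155). Masp1 had levels of 6.78, 7.05 and 6.99 under vehicle and 7.39, 7.17 and 7.46 under SAHA (log2 change 0.40, SE 0.158). For 6430537F04 they were 9.37, 9.12 and 8.83 under vehicle and 9.53, 9.53 and 9.63 under SAHA (log2 change 0.46, SE 0.18). Each of the 3 was separated between groups, although Ngfr and Masp1 lay close to the lowest levels on the array. Without SAHA pool 3 none of them was called, and the log2 change of Ngfr was 0.27.

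Genes that define medium spiny neurons leaned downward, and 2 of the 25 tested passed the threshold, where 0.379% of all genes were lower. Pde10a, the striatal phosphodiesterase of cAMP and cGMP, had levels of 8.48, 8.66 and 8.79 under vehicle and 8.32, 8.21 and 7.96 under SAHA (log2 change -0.48, SE 0.162). Arpp21, a phosphoprotein regulated by cAMP, had levels of 13.24, 13.35 and 13.49 under vehicle and 13.17, 13.20 and 12.74 under SAHA (log2 change -0.32, SE 0.134). Both were separated between groups, and SAHA pool 3 was the lowest array for both. Without it the log2 change of Arpp21 was -0.17, and neither was called. Over the list, 20 of 25 genes had a negative change, with a median of -0.24, and 5 genes (20%) had all SAHA pools below all vehicle pools, where 4% of all genes did.

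The downward lean of the medium spiny neuron genes was largest in SAHA pool 3. The median deviation of the list from the vehicle mean was -0.15, -0.09 and -0.50 in SAHA pools 1 to 3, and -0.09, -0.01 and 0.13 in vehicle pools 1 to 3. Within the first BeadChip the median change was -0.03, with 13 of 25 genes negative, and within the second it was -0.37, with 23 of 25 negative. Without SAHA pool 3 the median was -0.11 and none of the genes was called. Several of the best known striatal genes were not called. Rgs9, which speeds the end of dopamine receptor signalling, had a log2 change of -0.50 (SE 0.282), with levels of 11.79, 11.91 and 11.71 under vehicle and 11.21, 11.93 and 10.77 under SAHA, and the change was -0.81 without SAHA pool 2 and -0.23 without SAHA pool 3. Drd2, the D2 receptor, differed by -0.29 (SE 0.217) and Drd1a, the D1 receptor, by -0.10 (SE 0.0996). Ppp1r1b, the dopamine-regulated phosphoprotein DARPP-32, differed by -0.27 (SE 0.303), and the neuropeptide gene Tac1 (substance P) by -0.39 (SE 0.207). Of 29 dopamine and cAMP signalling genes, an overlapping list, the same 2 genes were lower, where 0.379% of all genes were. In this list 24 genes were negative, with a median of -0.12, or -0.05 without SAHA pool 3. The median over all genes was -0.0017.

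Several markers of tissue next to the NAc, though not all, were high in the same pool. Over 13 tested genes of septum, hypothalamus and thalamus, the median deviation from the vehicle mean was 0.04, 0.0049 and 0.41 in SAHA pools 1 to 3 and 0.16, -0.04 and -0.14 in vehicle pools 1 to 3. Zic1, a transcription factor of septum and other medial structures, had levels of 7.17, 7.10 and 7.67 under vehicle and 7.02, 8.09 and 9.29 under SAHA (log2 change 0.82, SE 0.609). Slc17a6 (VGLUT2), of thalamic and hypothalamic neurons, was at 8.56, 8.24 and 7.39 under vehicle and 8.64, 8.19 and 9.13 under SAHA (log2 change 0.59, SE 0.381). Ttr, which choroid plexus makes in large amounts, was at 7.87, 7.29 and 7.24 under vehicle and 8.04, 7.93 and 9.47 under SAHA (log2 change 1.01, SE 0.636), and Enpp2, also made by choroid plexus and by oligodendrocytes, was at 8.74, 8.26 and 9.14 under vehicle and 8.59, 9.27 and 9.83 under SAHA (log2 change 0.52, SE 0.546). SAHA pool 3 was the highest array for each of Zic1, Slc17a6, Ttr and Enpp2. The other tested choroid plexus and ependyma genes were mixed. Kl, Folr1, Aqp1, Otx2 and Foxj1 stayed near the lowest levels on the array, although all SAHA pools lay above all vehicle pools for Aqp1. Dynlrb2, also without overlap, had levels of 7.05, 7.08 and 7.15 under vehicle and 7.40, 7.18 and 7.38 under SAHA (log2 change 0.23, SE 0.117). Rsph1 differed by 0.11 (SE 0.11) and Clic6 by 0.10 (SE 0.178). Without SAHA pool 3 the log2 changes were 0.24 for Zic1, 0.36 for Slc17a6 and 0.52 for Ttr. In the list of 13, the thalamic transcription factor Tcf7l2 alone was called higher, where 0.17% of all genes were. Its log2 change was 0.41 (SE 0.181, or 0.27 without SAHA pool 1 and 0.64 without SAHA pool 2), and the groups overlapped. A further 5 members, Agrp, Hcrt, Otp, Pomc and Sim1, were not detected. The list members Oxt, Lef1, Avp and Gal had negative log2 changes of -0.45 (SE 0.309), -0.15 (SE 0.0546), -0.06 (SE 0.0715) and -0.04 (SE 0.277). For Lef1, a dim probe, all SAHA pools lay below all vehicle pools. Without SAHA pool 3 the median change of this list was 0.02, against 0.12 with it. The part of neighbouring tissue in the medium spiny neuron values was not tested.

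**Figure D2:**
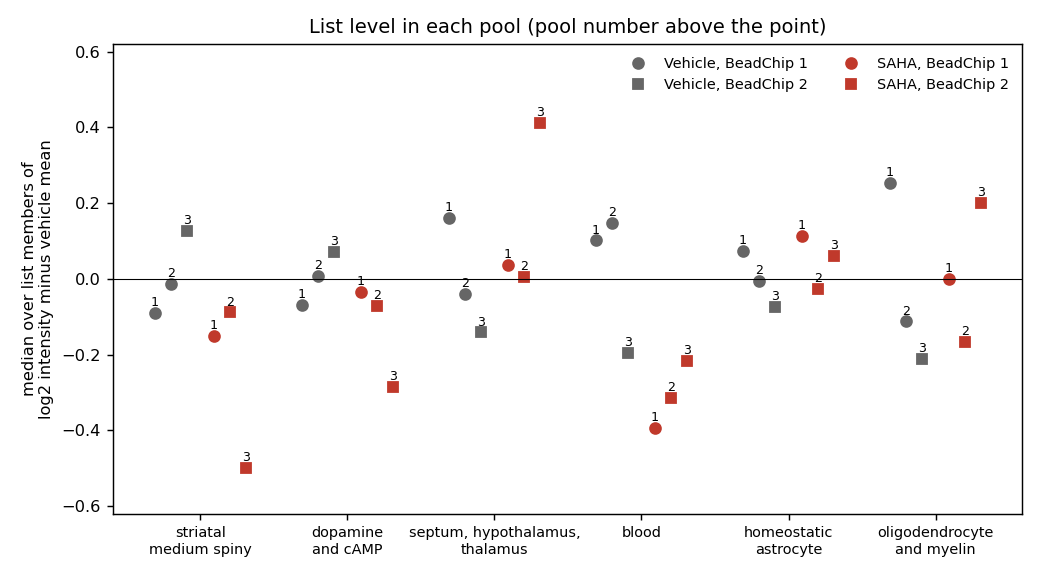
Median deviation of 6 gene lists from the vehicle mean on the log2 scale (y axis) in each vehicle (grey) and SAHA (red) pool of NAc; each point is 1 pool with its number, a circle on the first BeadChip and a square on the second. The medium spiny neuron list is at -0.50 and the septum, hypothalamus and thalamus list at 0.41 in SAHA pool 3, away from the other pools. The blood list, of 4 tested genes, is below 0 in all 3 SAHA pools. It is also below 0 in vehicle pool 3, at -0.20 beside -0.22 in SAHA pool 3.

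Genes of glutamatergic transmission were lower in a few members. Beside the counts in this paragraph, 0.379% of all genes were lower. Slc17a7 (VGLUT1) had levels of 8.10, 8.27 and 7.64 under vehicle and 7.39, 7.20 and 7.14 under SAHA, a log2 change of -0.76 (SE 0.262) with no overlap, and of -0.57 (SE 0.138) with the BeadChip as a block. Its vehicle levels in PFC and HIP, where its neurons lie, were 11.4 and 10.9. The other cortical and hippocampal glutamatergic markers were not called, Slc30a3, the zinc transporter of their vesicles, differing by -0.48 (SE 0.276) and Nrn1 by -0.34 (SE 0.222), and the median of the 16 tested was -0.07. Of 29 glutamate receptor and postsynaptic scaffold genes, Gria2 and Dlg4 (PSD-95, the main postsynaptic scaffold) were lower. Dlg4 had levels of 8.95, 9.002 and 9.33 under vehicle and 8.84, 8.77 and 8.84 under SAHA (log2 change -0.28, SE 0.116), and without vehicle pool 3 the change was -0.16 and was not called. The AMPA receptor subunit Gria1 differed by -0.06 (SE 0.099), the NMDA receptor subunit Grin1 by -0.10 (SE 0.173), and the median of the list was -0.02. Of 23 synaptic vesicle genes, Slc17a7 and Stx1a, a plasma membrane syntaxin, were lower. Stx1a had levels of 9.52, 9.51 and 9.08 under vehicle and 8.95, 9.14 and 8.82 under SAHA, which overlapped (log2 change -0.40, SE 0.172). Cartpt, which encodes a peptide of accumbens neurons, was the called member of 15 opioid and neuropeptide genes. It had levels of 10.12, 10.33 and 9.71 under vehicle and 9.88, 9.45 and 9.51 under SAHA, which also overlapped (log2 change -0.44, SE 0.178).

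Hemoglobin transcripts were lower under SAHA. Hba-a1, an alpha-globin, had log2 levels of 12.39, 12.32 and 11.74 under vehicle and 11.24, 11.35 and 11.70 under SAHA. All SAHA pools lay below all vehicle pools, vehicle pool 3 by a narrow margin, and the log2 change was -0.72 (SE 0.235), with -1.11 within the first BeadChip and -0.21 within the second. The most stable of 10 beta-globin (Hbb-b1) probes had levels of 12.01, 12.06 and 11.77 under vehicle and 11.15, 11.50 and 11.58 under SAHA (log2 change -0.54, SE 0.132). Of 11 globin probes, 9 had a negative change and 7 were called lower, with a range of -0.72 to 0.26, and the 2 positive ones were the dimmest. Over all probes, 0.406% were lower. The 10 Hbb-b1 probes among the 11 share 1 gene symbol and are not separate genes. Globin genes are near-identical copies, and several probes may read more than 1 of them. Alas2, the heme synthesis enzyme of red cell precursors, differed by -0.20 (SE 0.0966). In the other regions of the same pools, the log2 change of Hba-a1 was -0.46 in PFC (SE 0.22) and -0.53 in HIP (SE 0.184). The fall in NAc was not particular to SAHA. Under Cpd-60 and CI-994, other HDAC inhibitors set against the same vehicle arrays, Hba-a1 changed by -0.58 and -0.89. The brightest Hbb-b1 probe changed by -0.42 under SAHA, -0.55 under Cpd-60 and -0.65 under CI-994. The part of residual blood in these values was not tested.

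Several of the largest falls came mainly from SAHA pool 1. B230387C07Rik had levels of 9.91, 9.97 and 10.09 under vehicle and 7.98, 9.38 and 9.76 under SAHA (log2 change -0.95, SE 0.375). Akap9, an anchoring protein of the centrosome and Golgi, had 10.53, 10.47 and 10.48 against 9.53, 10.33 and 9.89 (log2 change -0.57, SE 0.215). Gcc2, a Golgi coiled-coil protein, had 8.89, 8.92 and 8.86 against 7.76, 8.65 and 8.54 (log2 change -0.57, SE 0.231). In each, SAHA pool 1 was the lowest array, and without it the log2 changes were -0.42, -0.38 and -0.29. Ankrd12 and Phactr1, a regulator of actin and protein phosphatase enriched in striatum and cortex, were also among the largest falls. Ankrd12 had levels of 8.20, 8.40 and 8.25 under vehicle and 7.45, 7.90 and 8.02 under SAHA (log2 change -0.49, SE 0.196), or -0.33 without SAHA pool 1. Phactr1 had levels of 11.44, 11.37 and 11.38 under vehicle and 10.90, 11.05 and 10.74 under SAHA. The log2 change was -0.50 (SE 0.207), with -0.51 and -0.49 within the BeadChips. Another Phactr1 probe of similar brightness (mean log2 level 11.17 against 11.21) gave -0.23 (SE 0.198), overlapped and was not called. A much dimmer Phactr1 probe gave 0.02. The other Akap9 probes gave -0.51 (SE 0.232) and -0.26 (SE 0.294), and the other Gcc2 probe -0.36 (SE 0.16). These Akap9 and Gcc2 probes overlapped and were not called. The other Ankrd12 probe was called lower at -0.52 (SE 0.186), with overlap.

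Genes of the drug's own pathway were not called. Of 16 deacetylase genes tested, none was higher or lower, the changes ran from -0.21 for Sirt7 to 0.24 for Hdac5, and the median was 0.02. Hdac2 differed by 0.09 (SE 0.363) and Hdac3 by 0.03 (SE 0.0978), and Hdac1 is not analysed here. None of 21 corepressor genes, 19 acetyltransferase and acetyl-lysine reader genes or 20 histone genes was called. Of 19 genes known to respond to HDAC inhibitors in cultured cells, none was called and the median was -0.01. Cdkn1a (p21), the best known of them, differed by -0.03 (SE 0.378), with an SE larger than the 0.26 that a 1.2-fold change amounts to. That SE is drawn from all 9 NAc arrays of the fit, including the pools given Cpd-60, another HDAC inhibitor. The vehicle and SAHA pools were closer, at 7.62, 7.55 and 7.46 against 7.66, 7.44 and 7.44. Their standard deviations were 0.080 and 0.126. The metallothionein Mt3 was at 12.15, 10.60 and 12.01 in SAHA pools 1 to 3 against 11.18, 11.12 and 11.57 under vehicle, so that SAHA pools lay both above and below all vehicle pools (log2 change 0.29, SE 0.356).

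None of 23 immediate early genes was called, and their median was -0.01. Both groups were injected 1 h before tissue was taken, so a response to injection common to both would not show in this difference. Fos differed by 0.08 (SE 0.198), Arc by 0.11 (SE 0.153) and Egr1 by -0.19 (SE 0.353), with Egr1 at 10.53, 12.03 and 11.30 in SAHA pools 1 to 3. Of 24 glucocorticoid-induced genes, Agxt2l1 and Gjb6 were higher, where 0.17% of all genes were, and the median was 0.02. Sgk1, a kinase induced by glucocorticoids, differed by 0.11 (SE 0.24), and Fkbp5, the immunophilin of the receptor complex, by -0.14 (SE 0.164). Ctgf, a matricellular growth factor, was at 8.46, 8.53 and 7.42 under vehicle and 7.29, 7.22 and 7.34 under SAHA (log2 change -0.85, SE 0.386), a difference of -1.20 within the first BeadChip and -0.13 within the second.

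Other cell types and housekeeping lists held few or no calls. None of 16 oligodendrocyte, 8 oligodendrocyte precursor, 16 microglia, 17 endothelial and mural, 17 interneuron and cholinergic, 10 choroid plexus and ependyma, 17 GABA, 21 chaperone, 16 clock or 68 oxidative phosphorylation genes was called, and their medians lay between -0.07 and 0.09. In the choroid plexus and ependyma list, 3 of the 10 genes (30%) had all SAHA pools above all vehicle pools, where 3.58% of all genes did, and Ttr was 1 of the 3. Gad1, which makes GABA, differed by 0.29 (SE 0.308). One of 61 ribosomal protein genes (Rps16, log2 change 0.30, SE 0.115, or 0.18 without vehicle pool 1) and 1 of 40 proteasome genes (Psmb5, log2 change 0.28, SE 0.0858) were higher. Over all genes, 0.17% were higher.

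**Figure D3:**
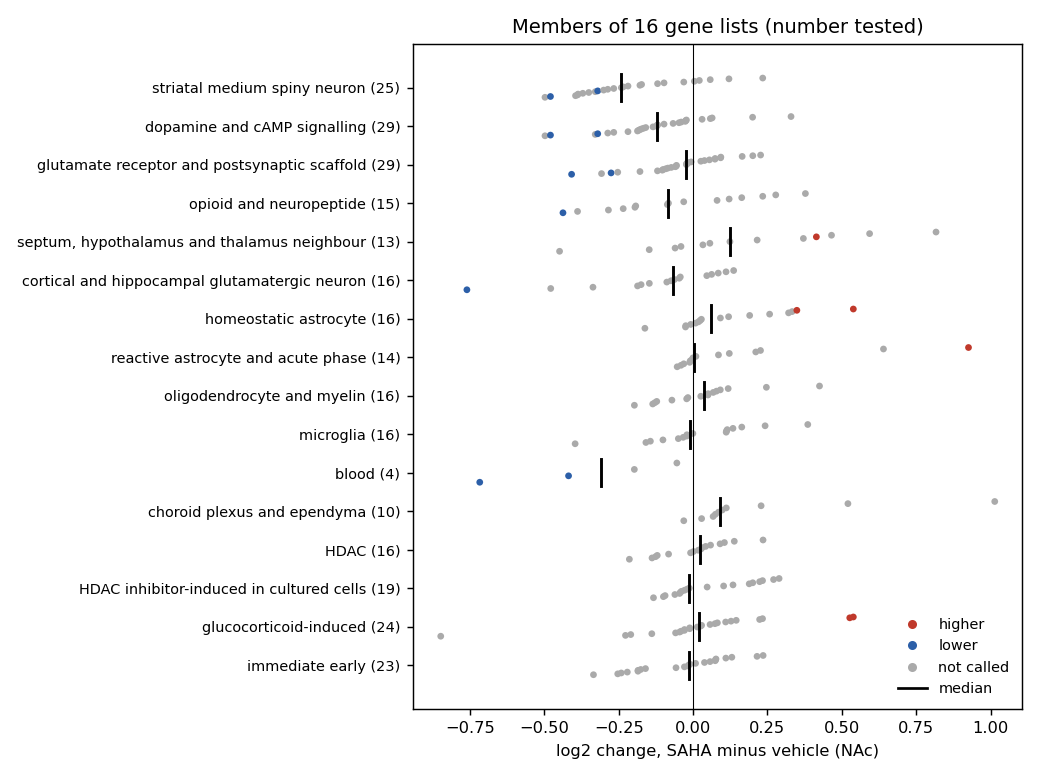
Log2 change of SAHA minus vehicle in NAc (x axis) for the tested members of 16 gene lists, 1 point per gene at its brightest probe, coloured where called higher or lower, with a bar at the list median. Most points lie within 0.26 of 0, and the medium spiny neuron list has its median at -0.24 with 2 lower members.

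The study named 12 genes from the array, mainly for their response to Cpd-60, a benzamide inhibitor of HDAC1 and HDAC2. Under SAHA in NAc, Agxt2l1 was higher and Rock2 lower, as above, and 10 were not called. Over all genes, 0.17% were higher and 0.379% lower. The glucocorticoid-responsive Tsc22d3 (GILZ) differed by 0.14 (SE 0.174), the sulfotransferase Sult1a1 by 0.13 (SE 0.148) and the calcium channel subunit Cacng5 by 0.16 (SE 0.194). Igfbp5 differed by 0.11, Qdpr by 0.07, Usp54 by 0.03, Mfsd2 by -0.03, Mef2c by -0.04 and the clock gene Per2 by -0.21. The other inhibitors were given at different doses, Cpd-60 at 45 mg/kg and CI-994 at 10 mg/kg, and are set against the same vehicle arrays, so their values are placed beside those of SAHA without a comparison. For Agxt2l1 the log2 changes were 0.53 under SAHA, 0.83 under Cpd-60 and -0.04 under CI-994. For Rock2 they were -0.33, -0.27 and -0.10 in the same order. For Gria2 they were -0.41, -0.26 and -0.31, and for Nrip3 0.62, 0.35 and 0.06. For Slc17a7 they were -0.76, -0.44 and -0.52. Of the 12 probes called in all 11 fits, 12 had the sign of their SAHA change under Cpd-60 and 12 under CI-994. The shared vehicle arrays enter all of these differences. For Sgk1 they were 0.11, 0.75 and -0.05.

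Few of the genes called in NAc were called in PFC or HIP of the same pools. Of the 27 genes higher in NAc, 25 were tested in PFC, where 0 were called in the same direction and the median change was 0.01, and 26 in HIP, where 1 was (9130213B05Rik), 2 were called lower (Lsamp and Masp1) and the median was -0.05. Of the 60 genes lower in NAc, 59 were tested in each region. In PFC, 1 was called lower, Hbb-b1, and in HIP 4 were, Hba-a1, 9530064J02, LOC100048221 and Inhba, the activin beta-A subunit, while Arpp21 and Pdzrn3 were called higher there. The background share of all genes called in those directions was 0.193% higher and 0.0714% lower in PFC, and 2.58% higher and 2.82% lower in HIP.

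The difference between regions was also tested directly, as the effect of SAHA in NAc minus the mean of its effects in PFC and HIP over 27 arrays. A total of 622 of 18610 probes (3.34%) had an unadjusted p under 0.05 and none passed adjustment, the smallest adjusted p in limma being 0.990006. Of the 12 stable probes, 10 were tested in all 3 regions and 8 had an unadjusted p under 0.05. The smallest was that of Rock2, whose log2 change of -0.33 in NAc stood beside 0.04 in PFC and 0.09 in HIP (difference -0.39, SE 0.089). Gria2 changed by -0.41 in NAc against 0.01 and 0.10 (difference -0.46, SE 0.111). Since these probes were chosen for their values in NAc, part of each difference was fixed by the choice. Outside the 12, the astrocyte gene Gjb6 differed by 0.09 in PFC and 0.07 in HIP (difference 0.46, SE 0.174), and the difference for Hba-a1 was -0.22 (SE 0.297).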

How the data were processed

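Total RNA (RIN 7.0 to 8.8) from pools of 2 mice was hybridised to Illumina MouseWG-6 arrays. The authors deposited raw, linear, non-normalized intensity values and detection p-values for 45281 probes, as exported from the scanner software and without normalization, and processed them in GeneSpring 11.5.1 for their own analysis. Here the intensities of the 27 vehicle, Cpd-60 and SAHA arrays were quantile-normalized, floored at 1 and log2-transformed. Probes with a detection p of at most 0.2 in 3 of 3 arrays of a NAc group were kept (22142 probes). SAHA was compared with vehicle with limma 3.58.1 in a fit of the 9 NAc arrays, with Benjamini-Hochberg adjustment over all probes tested, and p and SE values in the text are limma's unless Tukey's test is named. Regions were compared in the 27 arrays with the pool as a random block (consensus correlation 0.004669). CI-994 values came from a separate normalization of all 36 arrays. Gene lists use the brightest tested probe of each gene.

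Groups came from the labels of the samples. The members and lists were chosen with earlier results of these data known. Genes were named by a fixed rule, namely the largest called changes, the probes called in all 11 fits, the called members of each list and the genes named in the study, and further list members were added as examples after their values were seen. Array symbols can be old, and of 30869 symbols 16219 matched current RefSeq symbols, 5710 matched synonyms and 8940 matched neither. Pool numbers were checked as pairs. Deviations of same-numbered vehicle and SAHA arrays correlated at 0.43, -0.17 and 0.62, so the numbers were not taken to pair the arrays. No 2 arrays held the same values. The test was checked on simulated data. The number of arrays, 3 a group, limits the precision.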

Additional observations from a re-analysis of the deposited data

How the results depend on the processing

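No probe passed adjustment in any setting tried, and the nominal counts moved with most of them. Against 344 probes at an unadjusted p under 0.05 (34 higher and 90 lower past 1.2-fold), a detection limit of 0.01 gave 174 and dropping the detection filter gave 1052. Blocking on the BeadChip gave 545, with 139 lower, and neqc normalization gave 170 higher and 220 lower. Tukey's test gave 228, with 5 higher and 15 lower. The 6 arrays alone with the BeadChip blocked, a setting chosen after seeing the data, gave 701, with 109 higher and 178 lower. With the pool number as a replicate block the counts were 916, 178 and 235, although the numbers do not pair the arrays. Leaving out 1 pool gave 149 to 987 probes, 12 to 408 higher and 43 to 283 lower. Every SAHA and vehicle pool moved at least 1 of the counts by over 1.5 times, with 846 probes without SAHA pool 1, 987 without pool 2 and 149 without pool 3, and 216, 169 and 717 without vehicle pools 1 to 3. Leaving out Cpd-60 pool 3, also chosen after seeing the data, gave 58 higher. The region difference counted 622 probes, 574 with the animal pool as a fixed replicate block and 279 to 1855 when 1 pool was left out, the lowest without SAHA pool 3 and the highest without vehicle pool 3.

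Over 49 named probes and 19 alternatives, 757 values kept direction and side of the threshold, 160 no longer passed it, 1 newly passed and 13 turned sign, all in genes that were not called. Leaving out 1 pool gave -0.0753 to 0.367 for Cacng5, -0.0505 to 0.250 for Tsc22d3, -0.0236 to 0.240 for Igfbp5, -0.0697 to 0.252 for Qdpr, -0.0449 to 0.118 for Usp54, -0.153 to 0.0951 for Mfsd2 and -0.103 to 0.0197 for Mef2c. Mfsd2 was 0.113 with the BeadChip blocked and 0.0104 when the 6 arrays were also fitted alone. The causes were not tested.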
